A study of Mus musculus with 10 samples.

Results

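Microtubules are built from dimers of 1 alpha- and 1 beta-tubulin, and the mouse genome holds several genes, called isotypes, for each. The isotypes described here are the alpha-tubulins Tuba1a, Tuba1b, Tuba1c and Tuba4a and the beta-tubulins Tubb2a, Tubb2b, Tubb3, Tubb4a, Tubb5 and Tubb6, found in the count files by their gene symbols. They are 10 of the 34254 genes in the files, which hold 6 further alpha- and beta-tubulin genes. The 10 were picked by name, with earlier results of these data known, so counts and medians over them describe a chosen list.

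Single-cell RNA sequencing was run on retinal ganglion cells, the neurons whose axons form the optic nerve, in uninjured retinas and 2 weeks after optic nerve crush, which severs those axons. The comparison asks how gene expression in these neurons differs once their axons have been injured. All mice were wild-type, of the strain 129S1/SvImJ, described as of both sexes and labelled as 12 weeks of age. Cells of 10 retinas were pooled in a batch, depleted of macrophages and captured with antibody against the surface protein Thy1, so a library stands for pooled animals. The study's methods also name a depletion of amacrine cells, which the sample labels do not. The series description adds sorting by FACS, which the sample protocol does not mention, so whether cells were also sorted, and by what label, is not known. The uninjured group had 6 libraries and the injured group had 4, and no genotype or agent other than the crush is named for either group. The authors kept cells that co-expressed Rbpms, Slc17a6, Sncg and Tubb3, so Tubb3 served to select the cells and had a count in every cell of the files.

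The uninjured libraries 1 to 6 held 98, 103, 363, 651, 267 and 201 cells (1683 in all), and the injured libraries 1 to 4 held 338, 273, 527 and 471 (1609 in all, with 421 cell barcodes found in both injured 3 and 4 counted once for each). Molecules were counted by UMI, a random barcode given to each RNA copy at capture. Total UMIs per library ran from 2839693 to 23180399 (median 5180793) in uninjured and from 4698799 to 8860536 (median 6104973) in injured libraries. Median UMIs per cell ran from 20437 to 34337 in uninjured libraries and from 11257 to 14695 in injured libraries, so injured cells were shallower in each library. Median genes per cell ran from 5712 to 7127 and from 4043 to 4604.

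Several libraries stood apart. Injured libraries 3 and 4 shared 421 cell barcodes, where any other 2 libraries shared at most 1, and their gene counts differed by less than sampling noise (ratio of observed to sampling variance 0.985, against 1.47 to 21.2 between other libraries of the same group). They were averaged and treated as 1 sample, called injured 3-4, which left 6 uninjured and 3 injured samples. Numbers of injured cells in this text count both libraries, so the shared barcodes enter once for each. Neighbouring libraries were alike: the same ratio was 1.82 for uninjured 1 and 2, 1.87 for uninjured 3 and 4, 1.47 for uninjured 5 and 6, and 2.28 for injured 1 and 2. Since each such pair lies within 1 condition, batch and condition cannot be told apart, and mean levels by pair are given for Tuba1a and Tubb3. Cells with a count of Xist, which marks female cells, made up 62.1% of injured 1 and 67.4% of injured 2. They made up 0.569% of injured 3, 0.212% of injured 4 and at most 0.461% of any uninjured library. Cells with Xist were thus found almost only in injured 1 and 2, so the sexes were not balanced between groups. Counts of mCherry, a reporter that the labels do not mention, were found in 7.99% of cells of injured 1, 15.0% of injured 2, 86.0% of injured 3 and 84.3% of injured 4. In the uninjured libraries mCherry was found in 0 of 1683 cells, which allows a share of up to 0.178% of cells with a UMI. The study describes a viral vector expressing mCherry as a negative control, but does not say whether these libraries received it. The labels do not say whether libraries came from separate animals, so p-values measure the spread between these samples, which may be technical. Loss of some ganglion cell subtypes after crush and a change within cells cannot be told apart here.

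Tubulins differ from each other most in their C-terminal tails, which face outward from the microtubule and carry most of the enzymatic modifications that motors and severing proteins read. Tuba1a, Tubb2b and Tubb3 are known from developing and axon-growing neurons, Tuba4a and Tubb4a from the mature nervous system, and mutations of several of these genes disturb brain development or cause neurological disease. Retinal ganglion cells carry long axons packed with microtubules, and axon injury disrupts that array and calls on new tubulin where axons regrow.

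Levels are given as CPM, UMI counts scaled to a common library total with TMM factors (a correction for a few genes taking up a large share of the counts), as mean ± SD over 6 uninjured and 3 injured samples. Reads come from the 3′ ends of transcripts and each molecule counts as 1 UMI, so CPM was compared between genes without a length correction. Whether intronic or antisense reads were counted is not stated, and genes on the opposite strand overlap 8 of the 10 isotypes. The labels and the study's methods name different versions of the counting software. Of the 14234 genes with enough counts to test, 6256 passed an adjusted p of 0.05 in edgeR's quasi-likelihood test (44.0%), 3026 with higher (21.3%) and 3230 with lower (22.7%) levels after crush. All 10 isotypes were tested, and 9 of the 10 passed. Tuba1c, Tubb2b, Tubb3, Tubb5 and Tubb6 were higher, and Tuba1b, Tuba4a, Tubb2a and Tubb4a were lower. Tuba1a did not pass. Tuba1c and Tubb6 had enough counts to test only through the injured samples, where they were high. Their calls as higher thus leaned on the count filter and are descriptions. The 2 groups did not overlap in CPM for any of the 10 isotypes (6 higher and 4 lower in injured samples), against 6112 of all genes tested (42.9%). The median log2 fold change of the isotypes was 0.73, beside -0.03 for all genes tested. Their median size of change regardless of sign was 1.18 on the log2 scale, beside 0.49. The 2 other alpha- and beta-tubulin genes tested, Tubb4b and Tuba8, are outside the 10, and both fell (log2 fold change -1.43 and -2.17). The median of the isotypes was also 0.73 with the 2 rarest, Tuba1c and Tubb6, set to the bound of their counting intervals nearest to no change, but it depended on which isotypes and cells were kept. It was -0.12 with at least 10 counts required in every sample, where Tuba1c and Tubb6 were not tested. It was 0.38 with cells thinned to 5000 UMIs, where Tuba1c was not tested, and 0.37 among cells with no mCherry UMI. The subset with no mCherry UMI kept all 1683 uninjured cells but 311, 232, 74 and 74 cells of injured 1 to 4. Directions of the 10 isotypes were the same under each of the 25 alternative settings in which an isotype was tested, scalings included.

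**Figure D1:**
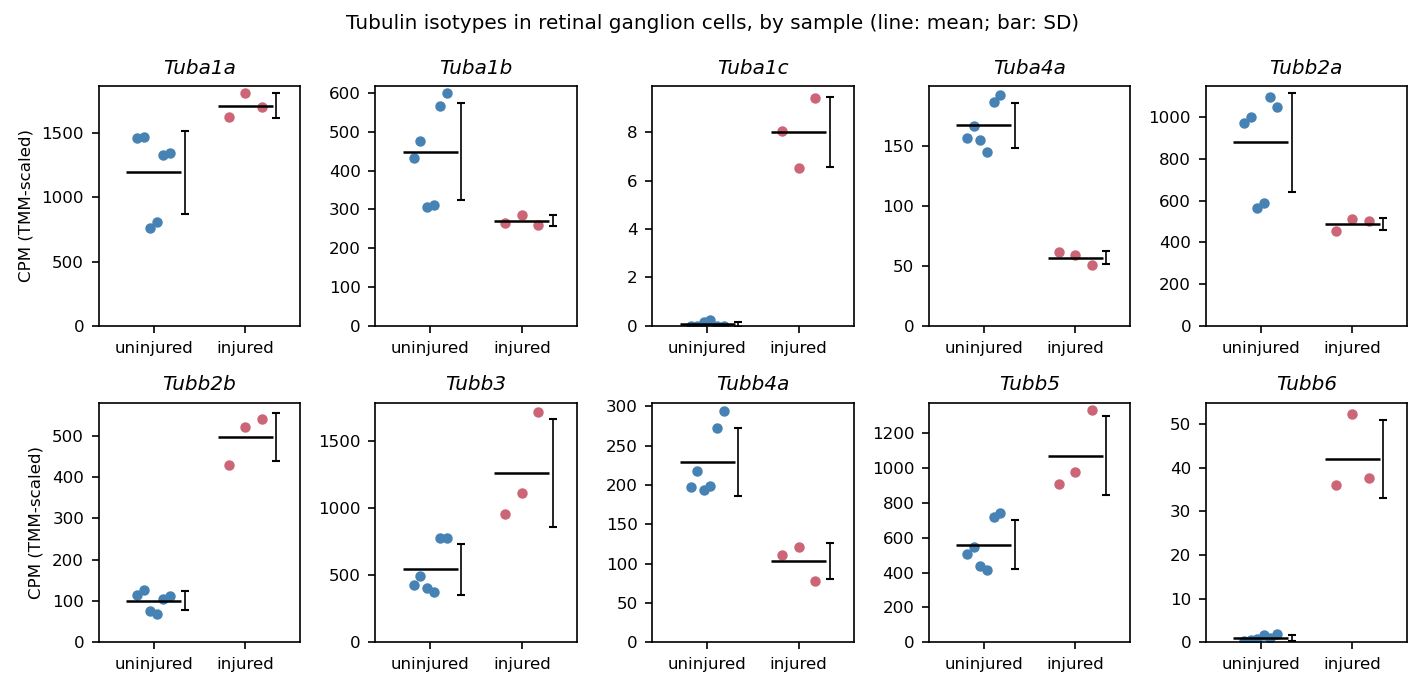
CPM of each isotype by sample, with a panel for each gene, a point for each of 6 uninjured and 3 injured samples, a line at the mean and a bar for the SD. Tubb2b runs from 68.9 to 126 CPM in uninjured and from 430 to 540 CPM in injured samples, whereas Tuba4a runs from 145 to 193 and from 50.5 to 61.3.

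Tuba1a, the alpha isotype associated with growing axons, was on average the most abundant tubulin of both groups. Its level had a lowest value of 763, a median of 1335 and a highest value of 1468 CPM in uninjured samples, and it was 1624 in injured 1, 1813 in injured 2 and 1700 in injured 3-4. The injured samples were higher in 3 of 3 than any uninjured sample, and uninjured 3 and 4 were the lowest. Mean Tuba1a was 1196 ± 322 CPM in uninjured and 1712 ± 95.1 CPM in injured samples, a 1.43-fold difference that did not pass in edgeR's quasi-likelihood test (log2 fold change 0.52, SE 0.23, Benjamini-Hochberg adjusted p 0.0925). By pair of neighbouring libraries, Tuba1a averaged 1465 in uninjured 1 and 2, 787 in uninjured 3 and 4, 1335 in uninjured 5 and 6, 1718 in injured 1 and 2 and 1700 CPM in injured 3-4. Over the alternatives the adjusted p of Tuba1a ran from 0.0128 to 0.752. It passed in 4 of the 25: with limma-voom (log2 fold change 0.69, adjusted p 0.0128), in cells whose Malat1 share was 3 to 5% of UMIs (0.75, adjusted p 0.0241), and in libraries 1 to 4 alone with a replicate block (0.65, adjusted p 0.0201) and without it (0.59, adjusted p 0.0281). The last 2 fits enter injured 3 and 4 as separate samples, so their p-values count 1 sample as 2, and the Malat1 subset kept 7 and 8 cells of uninjured 5 and 6. The smallest difference was that of cells with no mCherry UMI (0.18, adjusted p 0.752). Of 411 windows of 90 bases in the last 500 bases of the Tuba1a transcript, 214 (52.1%) also occur in Tuba1b, Tuba1c or genes of the annotation known by Gm numbers, so counts of Tuba1a are uncertain to that extent. The same count was 0 for each of the other 9 isotypes, but it covers only the last 500 bases of 1 transcript each. Since windows of Tuba1a occur in transcripts of Tuba1b and Tuba1c, reads from those stretches are uncertain for these 2 genes as well.

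Tuba1b, a broadly expressed alpha isotype, fell. Uninjured samples had a lowest Tuba1b level of 307, a median of 454 and a highest level of 601 CPM, and the injured samples stood at 265, 287 and 260 CPM. Each injured sample lay under each uninjured sample, with the gap to uninjured 3 and 4 the smallest. Mean Tuba1b was 449 ± 124 and 271 ± 14.5 CPM, 1.66-fold lower after crush (log2 fold change -0.73, SE 0.23, adjusted p 0.0241 in edgeR's quasi-likelihood test). This call of Tuba1b was lost when any 1 injured sample was left out: without injured 1 the log2 fold change of Tuba1b was -0.71 (adjusted p 0.0843), without injured 2 it was -0.77 (0.0642) and without injured 3-4 it was -0.68 (0.0897). Tuba1b also missed the threshold with neighbouring libraries summed (-0.76, adjusted p 0.105), among cells with 3 to 5% Malat1 (-0.24, adjusted p 0.438) and among cells with no mCherry UMI (-1.05, adjusted p 0.0715), within a range of adjusted p from 0.00463 to 0.438 over the alternatives.

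Tuba1c, the third member of the Tuba1 group, was near 0 before crush. It had 0 UMIs in 4 of the 6 uninjured samples, where a count of 0 allows up to 0.552 to 1.01 CPM, and 0.150 and 0.247 CPM in uninjured 3 and 4. After crush Tuba1c stood at 8.05 CPM in injured 1, 6.51 in injured 2 and 9.40 in injured 3-4. All 3 injured samples thus lay above the 6 uninjured samples, but Tuba1c remained among the rarest isotypes. From 8 UMIs in uninjured and 145 in injured samples, the ratio of Tuba1c levels was 55.6, with an exact 95% interval of 27.5 to 131 that covers counting error only. The fitted log2 fold change of 5.72 (SE 0.45, adjusted p 1.56e-06 in edgeR's quasi-likelihood test) depends on the prior count, and it was 6.56 without uninjured 4, which held 6 of the 8 uninjured UMIs.

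Tuba4a, the alpha isotype of mature neurons, fell. Its lowest, median and highest levels in uninjured samples were 145, 161 and 193 CPM, and injured samples had 61.3, 58.6 and 50.5 CPM. The groups were far apart, with the highest injured sample below each uninjured sample. Mean Tuba4a was 167 ± 18.9 CPM in uninjured and 56.8 ± 5.62 CPM in injured samples, 2.94-fold lower (log2 fold change -1.55, SE 0.14, adjusted p 5.5e-06 in edgeR's quasi-likelihood test). The log2 fold change of Tuba4a ran from -1.81 to -1.10 over the alternatives, and the call held under each of the 25.

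The last 60 coding bases before the stop codon, which encode the C-terminal tail, are shown for 4 beta isotypes, 2 that fell and 2 that rose, since the tail is where Tubb3 departs most from the others. In the GENCODE vM39 transcripts on GRCm39 (mm39) they lie at chr13:34258454-34258513 for Tubb2a, chr17:57387693-57387752 for Tubb4a and chr17:36145877-36145936 for Tubb5, each on the reverse strand, and at chr8:124148359-124148418 on the forward strand for Tubb3. Capitals mark bases that differ from the Tubb2a tail, or are inserted, in a global alignment.
Tubb2a: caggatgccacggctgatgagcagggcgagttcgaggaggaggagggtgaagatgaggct
Tubb4a: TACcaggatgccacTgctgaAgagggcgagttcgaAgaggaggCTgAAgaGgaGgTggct
Tubb5: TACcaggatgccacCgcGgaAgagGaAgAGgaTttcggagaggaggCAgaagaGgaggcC
Tubb3: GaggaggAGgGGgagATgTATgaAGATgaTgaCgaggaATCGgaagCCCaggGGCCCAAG
Relative to Tubb2a, 13 of these 60 bases differed or were inserted in Tubb4a, 15 in Tubb5 and 31 in Tubb3. Tubb2a and Tubb3 matched at 48.3% of the 60 bases and at 84.3% of the coding bases before them. The coding sequences differ in length (1335 bases in Tubb2a, 1332 in Tubb4a and Tubb5, 1350 in Tubb3). Windows of 60 bases counted back from the stop codon thus start at different codons. The counts and the 48.3% include that offset and overstate the differences between tails. Tubb2a and its neighbour Tubb2b, by contrast, were 96.5% identical over the whole coding sequence and 95% over the tail.

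Tubb2a and Tubb2b are class II beta-tubulins, the main beta class of adult brain. Tubb2a levels in uninjured samples had a lowest value of 565, a median of 987 and a highest value of 1096 CPM, and those in injured samples were 455, 510 and 501 CPM. Uninjured 3 and 4 were again the lowest of their group, yet still above each injured sample. Mean Tubb2a was 879 ± 237 and 489 ± 29.5 CPM, 1.80-fold lower after crush (log2 fold change -0.85, SE 0.24, adjusted p 0.0142 in edgeR's quasi-likelihood test). The Tubb2a call was lost without injured 1 (log2 fold change -0.79, adjusted p 0.0660) and with neighbouring libraries summed (-0.86, adjusted p 0.0873), and adjusted p of Tubb2a ran from 0.00307 to 0.0873 over the alternatives.

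Tubb2b went the other way. Its lowest, median and highest uninjured levels were 68.9, 109 and 126 CPM, and the injured levels were 430, 522 and 540 CPM. The lowest injured sample of Tubb2b exceeded the highest uninjured sample. Mean Tubb2b was 101 ± 22.9 CPM in uninjured and 497 ± 59.0 CPM in injured samples, a 4.94-fold rise (log2 fold change 2.31, SE 0.19, adjusted p 2.57e-06 in edgeR's quasi-likelihood test). With Tubb2a at 489 and Tubb2b at 497 CPM, the pair stood at nearly equal levels after crush, where Tubb2a had been the far more abundant one. The log2 fold change of Tubb2b ran from 1.95 to 2.44 over the alternatives, and the call held in each.

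Tubb3, the class III beta-tubulin enriched in neurons, rose. Uninjured levels of Tubb3 had a lowest value of 374, a median of 461 and a highest value of 781 CPM, and the injured levels were 956, 1110 and 1719 CPM. Injured 3-4 was the highest, uninjured 5 and 6 were the highest of their group, and the groups did not overlap. Mean Tubb3 was 544 ± 188 and 1262 ± 403 CPM, a 2.32-fold rise (log2 fold change 1.22, SE 0.28, adjusted p 0.00415 in edgeR's quasi-likelihood test). By pair of neighbouring libraries, Tubb3 averaged 461, 390 and 781 CPM in the uninjured pairs, 1033 CPM in injured 1 and 2 and 1719 CPM in injured 3-4. Without injured 3-4 the log2 fold change of Tubb3 was 0.95 (adjusted p 0.0305). Among cells with no mCherry UMI it was 0.80 and missed the threshold (adjusted p 0.0673). That subset held 74 of 527 cells of injured 3 and 74 of 471 of injured 4. Adjusted p of Tubb3 ran from 1.34e-05 to 0.0673 over the alternatives. Because cells were kept for expressing Tubb3, cells without it were not measured in either group. Injured cells were shallower (library medians of 11257 to 14695 UMIs per cell, against 20437 to 34337). A required Tubb3 UMI is harder to meet in a shallower cell, so this selection can raise Tubb3 more in the injured group. Its part in the higher Tubb3 level, share and ratio to Tubb2a was not tested.

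Tubb5, the broadly expressed class I beta-tubulin, also rose. In uninjured samples its lowest, median and highest levels were 413, 527 and 739 CPM, and in injured samples they were 906, 976 and 1328 CPM. Injured 3-4 was again the highest, and each injured sample exceeded each uninjured sample. Mean Tubb5 was 560 ± 139 and 1070 ± 226 CPM, a 1.91-fold rise (log2 fold change 0.93, SE 0.22, adjusted p 0.00455 in edgeR's quasi-likelihood test). Without injured 3-4 the log2 fold change of Tubb5 was 0.77 (adjusted p 0.0291), and among cells with no mCherry UMI it was 0.56 and missed the threshold (adjusted p 0.157), with adjusted p from 1.92e-05 to 0.157 over the alternatives.

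Tubb4a, a beta isotype of the mature nervous system, fell. Uninjured levels of Tubb4a had a lowest value of 194, a median of 208 and a highest value of 294 CPM, and the injured levels were 111, 121 and 77.6 CPM. Injured 3-4 was the lowest, and the groups did not overlap. Mean Tubb4a was 229 ± 43.4 and 103 ± 22.9 CPM, 2.22-fold lower (log2 fold change -1.15, SE 0.20, adjusted p 0.000675 in edgeR's quasi-likelihood test). Over the alternatives the log2 fold change of Tubb4a ran from -1.29 to -0.77, and the call held in each.

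Tubb6, the class V beta-tubulin, is best known from cells outside the nervous system. Its uninjured levels were low, with a lowest value of 0.337, a median of 0.798 and a highest value of 2.04 CPM, and the injured levels were 36.1, 52.3 and 37.6 CPM. Each injured sample exceeded each uninjured sample by more than the whole spread within either group. From 67 UMIs in uninjured and 719 in injured samples, the ratio of Tubb6 levels was 32.9, with an exact 95% counting interval of 25.6 to 42.9. The fitted log2 fold change of Tubb6 was 5.15 (SE 0.30, adjusted p 1.89e-07 in edgeR's quasi-likelihood test), which ranked 149th from the top among the 14234 genes tested, and Tuba1c ranked 117th and Tubb2b 540th. The ranks of Tuba1c and Tubb6 rest on 8 and 67 uninjured UMIs, so they are approximate. Both genes had enough counts to test only through the injured samples.

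**Figure D2:**
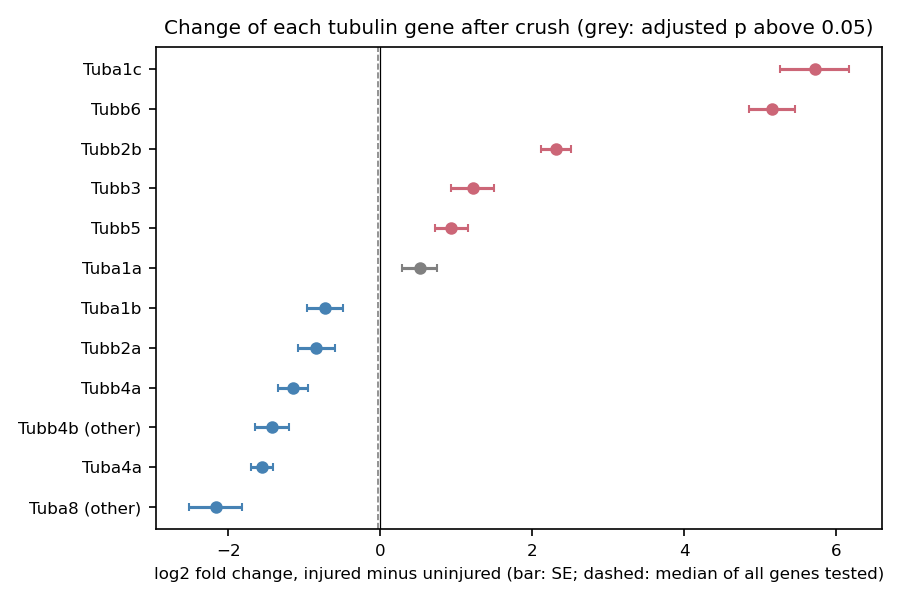
Log2 fold change with its SE for each tested alpha- or beta-tubulin gene, injured minus uninjured, with genes past an adjusted p of 0.05 in red (higher) or blue (lower) and the dashed line at the median of all genes tested (-0.03). Tuba1c (5.72) and Tubb6 (5.15) lie farthest to the right, Tuba1a (0.52) is grey, and Tuba4a (-1.55) is the lowest of the 10 isotypes.

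Of the 6 further alpha- and beta-tubulin genes in the files, 2 had enough counts to test and both fell. Tubb4b, a broadly expressed beta isotype, went from 403 ± 97.9 to 150 ± 16.3 CPM (log2 fold change -1.43, SE 0.22, adjusted p 0.000251 in edgeR's quasi-likelihood test), lower in 3 of 3 injured samples than in any uninjured sample. Tuba8, a rare alpha isotype, had 186 UMIs in uninjured and 12 in injured samples. The ratio was 0.198 with an exact 95% counting interval of 0.100 to 0.354. Tuba8 had enough counts to test only through the uninjured samples, where it was high. Tuba3a, Tuba3b, Tubal3 and Tubb1 had at most 12 UMIs in either group and were not tested.

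The makeup of the tubulin pool was then described as the share of each isotype among the UMIs of all alpha- and beta-tubulin genes in a sample, which does not depend on library size. In uninjured samples the order of the isotypes and Tubb4b was Tuba1a (26.3 ± 3.54%), Tubb2a (19.3 ± 1.35%), Tubb5 (12.4 ± 1.08%), Tubb3 (11.9 ± 1.95%), Tuba1b (9.84 ± 0.482%), Tubb4b, Tubb4a, Tuba4a and Tubb2b, with Tubb6 and Tuba1c far behind. Tubb5 exceeded Tubb3 in 4 of 6 uninjured samples, and Tubb3 exceeded Tuba1b in 5 of 6, so these neighbours did not differ beyond their spread, whereas Tuba1a exceeded Tubb2a in 6 of 6. After crush the order was Tuba1a (30.4 ± 3.35%), Tubb3 (22.0 ± 4.49%), Tubb5 (18.8 ± 1.92%), Tubb2b (8.79 ± 0.432%), Tubb2a (8.67 ± 0.730%), Tuba1b (4.81 ± 0.681%), Tubb4b, Tubb4a, Tuba4a, Tubb6 and Tuba1c. Tuba1a exceeded Tubb3 in 2 of 3 injured samples, and Tubb2b exceeded Tubb2a in 2 of 3. In injured 3-4 Tubb3 took 27.2% and Tuba1a 26.6%.

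With 6 against 3 samples the smallest p that an exact two-sided permutation test can give is 0.0238, and it is reached whenever the groups do not overlap. The permutation takes neighbouring libraries, which were alike, as separate samples. The Tubb2a share went from 19.3 ± 1.35% to 8.67 ± 0.730% and the Tubb2b share from 2.24 ± 0.269% to 8.79 ± 0.432% (exact two-sided permutation p 0.0238 each). The share of Tubb3 went from 11.9 ± 1.95% to 22.0 ± 4.49% and that of Tubb5 from 12.4 ± 1.08% to 18.8 ± 1.92% (exact two-sided permutation p 0.0238 each). Shares of Tuba1b (9.84% to 4.81%), Tuba4a (3.80% to 1.02%) and Tubb4a (5.16% to 1.86%) were lower and those of Tubb6 (0.0241% to 0.746%) and Tuba1c (0.00206% to 0.141%) higher in each injured sample than in any uninjured sample (exact two-sided permutation p 0.0238 each). The Tuba1a share overlapped between groups, from 23.6% to 31.6% in uninjured and from 26.6% to 32.5% in injured samples (exact two-sided permutation p 0.119). Within alpha-tubulin alone, however, Tuba1a took 65.5 ± 3.83% before and 83.6 ± 0.686% after crush (exact two-sided permutation p 0.0238), while Tuba1b went from 24.7 ± 2.68% to 13.2 ± 0.376%. With an injured sample left out, the smallest p that the exact two-sided permutation test can give is 0.0714, so no share can pass there.

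**Figure D3:**
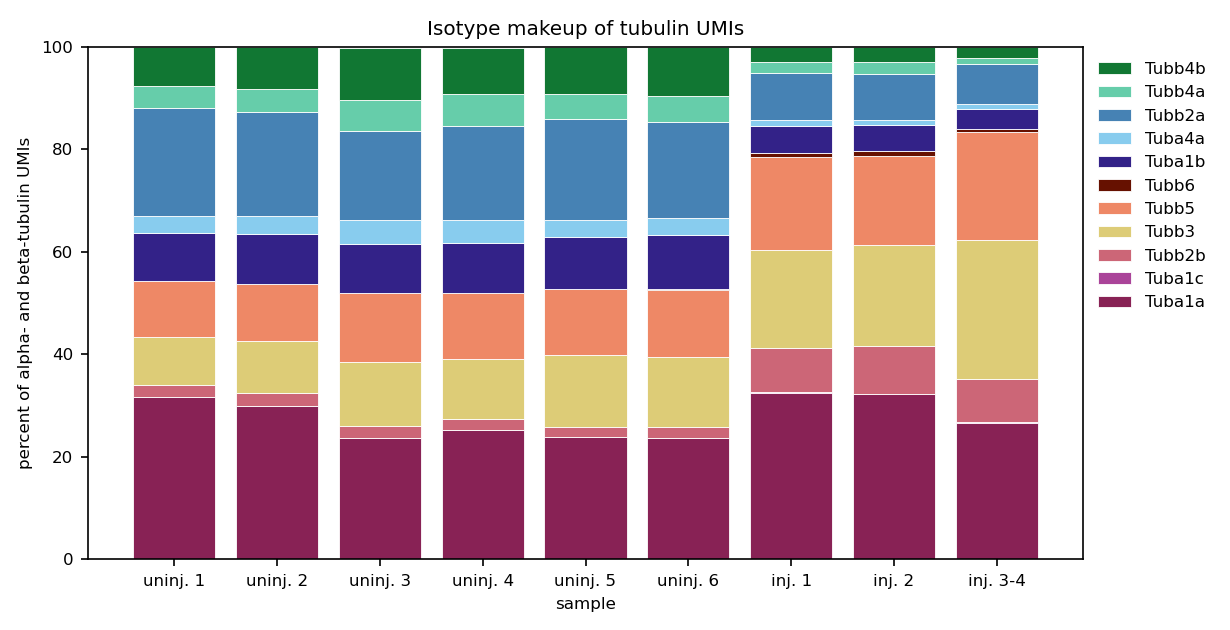
Percent of alpha- and beta-tubulin UMIs taken by each isotype and by Tubb4b, as stacked bars for the 6 uninjured and 3 injured samples. Tubb3, Tubb5 and Tubb2b take 22.0%, 18.8% and 8.79% on average after crush, against 11.9%, 12.4% and 2.24% before, and Tubb2a and Tuba1b take less.

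Summed, the 5 isotypes that rose took 26.6 ± 2.72% of tubulin UMIs before crush and 50.5 ± 5.97% after it, and the 4 that fell took 38.1 ± 0.383% and 16.4 ± 2.18%. In CPM, the 5 went from 1206 ± 338 to 2879 ± 674 and the 4 from 1724 ± 408 to 920 ± 49.7. Since these isotypes were grouped by the direction they took, the sums describe sizes and carry no test. Beta-tubulin as a whole took 59.9 ± 2.98% of tubulin UMIs before and 63.6 ± 4.24% after crush, and the groups overlapped. All alpha- and beta-tubulin genes together took 0.456 ± 0.0931% of all UMIs in uninjured samples (0.337 to 0.533%) and 0.547 ± 0.0746% in injured samples, which were 0.481, 0.533 and 0.628% for injured 1, 2 and 3-4. These totals overlapped, and the injured mean was 0.422% among cells with no mCherry UMI, so the total gave no clear direction where single isotypes did.

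Injured cells held fewer UMIs, and CPM and UMIs per cell gave different pictures. Tubulin UMIs per cell averaged 131 ± 21.1 in uninjured samples (113 to 170) and 90.2 ± 5.19 in injured samples (84.4 to 94.4), with no overlap. Per cell, Tuba1a averaged 35.0 ± 10.0 UMIs before and 27.4 ± 2.20 after crush, where its CPM had been higher. Tubb5 averaged 16.1 ± 1.51 and 17.0 ± 2.41 UMIs per cell, a ratio of 1.06, and Tubb3 averaged 15.3 ± 1.70 and 19.9 ± 4.97. Tubb2b had more UMIs per cell after crush on both scales, with 2.97 ± 0.814 and 7.93 ± 0.632 UMIs per cell, a ratio of 2.67. Tubb2a went from 25.4 ± 5.48 to 7.81 ± 0.461 UMIs per cell and Tuba4a from 4.93 ± 0.807 to 0.913 ± 0.149. What lay behind the lower UMI count of injured cells was not tested, so a difference per cell and a difference in CPM are both given.

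**Figure D4:**
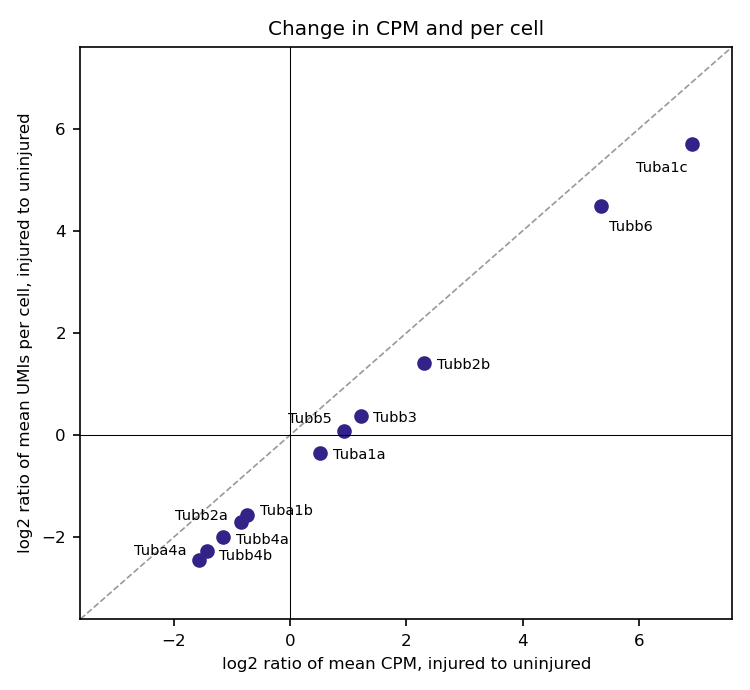
Log2 ratio of mean UMIs per cell against log2 ratio of mean CPM, injured to uninjured, for each isotype and Tubb4b, with a dashed line where both are equal. Each gene lies below the line, Tuba1a crosses 0 (0.52 in CPM and -0.35 per cell), and the Tuba1c point rests on 8 uninjured UMIs.

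To set cells of unequal depth beside each other, each cell was thinned at random to 5000 UMIs, which kept 1674 of 1683 uninjured and 1572 of 1609 injured cells and left out the shallower ones. Thinned cells with a Tubb6 UMI made up 0.554 ± 0.518% before and 13.4 ± 1.44% after crush, and cells at full depth 2.96 ± 1.88% and 34.5 ± 3.58%. For Tuba1c the shares were 0% (of 1674 cells, which allows up to 0.179%) and 3.52 ± 0.806% of thinned cells, and 0.245 ± 0.398% and 10.6% (9.16 to 11.5%) at full depth. Tubb2b was found in 39.4 ± 5.38% and 77.4 ± 3.23% of thinned cells (82.8 ± 4.76% and 91.5 ± 3.17% at full depth), and Tuba4a in 54.9 ± 4.30% and 19.3 ± 2.35% (92.4 ± 2.77% and 42.0 ± 3.83% at full depth). For Tubb4a the shares were 64.4 ± 8.36% and 35.8 ± 6.05% of thinned cells (97.2 ± 2.42% and 66.9 ± 10.1% at full depth). The files hold no other cell class in which to gauge free RNA, so a share of cells with a UMI is not a share of cells that express the gene.

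The balance of Tubb2a and Tubb2b was also read cell by cell, in thinned cells with at least 3 UMIs of the 2 genes together. In the median uninjured cell Tubb2b made up between 0% and 9.09% of these UMIs, depending on the sample, and in the median injured cell it made up 50% in injured 1 and 2 and 52.8% in injured 3-4. Tubb2b exceeded Tubb2a in 0% to 1.53% of cells in uninjured samples and in 45.0%, 45.6% and 49.7% of cells in the injured samples. The injured distribution was broad: in injured 1, 5.96% of cells had under 10% Tubb2b, 5.50% had 90% or more, and 22.5% lay between 60 and 70%. The breadth includes the counting error of few UMIs a cell, and the 2 groups hold different cells, so these are distributions and no cell was followed over time.

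**Figure D5:**
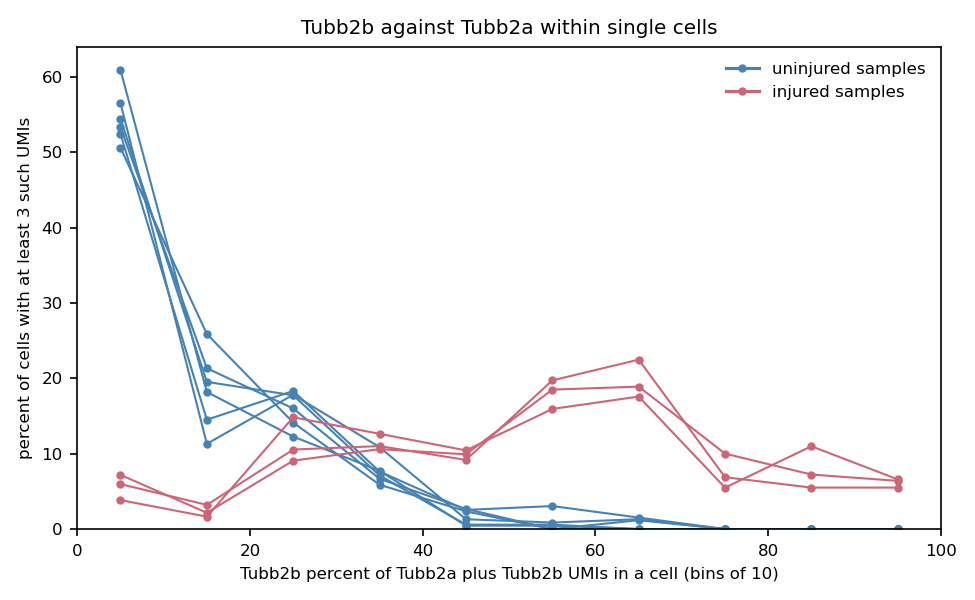
Distribution over cells of Tubb2b as a percent of Tubb2a plus Tubb2b UMIs, in bins of 10, with a line for each of 6 uninjured (blue) and 3 injured (red) samples and cells with at least 3 such UMIs at 5000 UMIs a cell. Between 50.6% and 60.9% of uninjured cells fall in the lowest bin, against 3.85% to 7.19% of injured cells.

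Other pairs were read in the same way. Tubb3 exceeded Tubb2a in 11.4% to 26.2% of uninjured cells across samples and in 67.0%, 71.4% and 86.2% of cells of the injured samples. Tuba1a made up a median of 71.4% to 77.8% of Tuba1a plus Tuba1b UMIs in uninjured samples and 87.5%, 90% and 88.9% in the injured samples. All tubulin genes together took a median of 0.30% to 0.54% of a thinned cell's UMIs in uninjured samples and 0.38%, 0.41% and 0.49% in injured samples. The groups thus overlapped in the tubulin percent of a thinned cell's UMIs and did not overlap in the ratios of Tubb3 to Tubb2a or of Tuba1a to Tuba1b.

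Genes whose counts varied with Tuba1a across the cells of a sample were ranked by the mean over 9 samples of the within-sample Pearson correlation of thinned counts, among 925 genes. The 5 highest outside the tubulins were Ubb (0.560), Ppia (0.556), Stmn1 (0.537), Tmsb10 (0.534) and Uchl1 (0.527), and the correlation of Ubb ranged from 0.312 to 0.760 between samples. Among tubulins, Tuba1a correlated with Tubb5 (0.481), Tubb2a (0.465) and Tubb3 (0.399). For Tubb3 the 5 highest outside the tubulins were Ywhah (0.305), Stmn3 (0.300), Uchl1 (0.298), Gapdh (0.295) and Ubb (0.292), each lower than those of Tuba1a. Between samples the correlation of Ywhah with Tubb3 ranged from -0.0411 to 0.578 and that of Uchl1 from 0.00562 to 0.583. Tubb3 also correlated with Tubb5 (0.317) and Tubb2a (0.309). These are descriptions over cells that share a library, and in sparse counts they also follow how abundant a gene is. Of the 8 genes named for either isotype, Gapdh differed between groups (log2 fold change -1.27, adjusted p 0.00728 in edgeR's quasi-likelihood test) and the other 7 did not pass.

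Several isotypes lie side by side in the genome. On GRCm39, Tuba1b (chr15:98827738-98832493) lies 15.2 kb from Tuba1a (chr15:98847714-98851589), both on the reverse strand, and Tuba1c (chr15:98927748-98936266, forward strand) lies 76.2 kb beyond Tuba1a. Of these neighbours Tuba1c rose, Tuba1b fell and Tuba1a did not pass. Tubb2a (chr13:34257549-34261998) and Tubb2b (chr13:34307245-34315143) lie 45.2 kb apart on the reverse strand and moved in opposite directions. A gene on the same strand, Gm49450, overlaps Tuba1a and Tuba1b and had 0 counts in each sample. Over the whole coding sequence of the GENCODE vM39 transcripts, Tuba1a was 98.3% identical to Tuba1b, 97.1% to Tuba1c and 84.8% to Tuba4a.

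The 250 bases upstream of the start of a gene were taken from RefSeq (GRCm38.p6) for the 8 isotypes with an entry, which leaves out Tubb2b and Tubb6. They were searched on both strands for 6 short motifs: AP-1 (TGANTCA), the cyclic AMP response element (TGACGTCA), the GC box (GGGCGG), the TATA box (TATAAA), the CCAAT box (CCAAT) and the E-box (CANNTG). The CCAAT letters were found in 3 of 3 isotypes that rose (Tuba1c, Tubb3 and Tubb5), in 0 of 4 that fell (Tuba1b, Tuba4a, Tubb2a and Tubb4a) and in Tuba1a, beside 33.8% of all 32851 promoters of the same length. AP-1 letters were found in 0 of 8, beside 6.75% of all promoters, and the cyclic AMP element (1.55% of all) and the TATA box (12.4% of all) were found in Tubb2a alone. The GC box was found in 1 of 3 that rose, 3 of 4 that fell and Tuba1a, beside 32.7% of all promoters, and the E-box in 2 of 3, 3 of 4 and Tuba1a, beside 66.2%. A match is a description and not a binding site, and the direction of these isotypes was known when the motifs were compared. The upstream sequences of Tubb3 (chr8:123411303-123411552, forward strand) and Tubb5 (chr17:35838302-35838551, reverse strand), the most abundant isotypes that rose, are shown with CCAAT, or ATTGG for the other strand, in capitals.
Tubb3: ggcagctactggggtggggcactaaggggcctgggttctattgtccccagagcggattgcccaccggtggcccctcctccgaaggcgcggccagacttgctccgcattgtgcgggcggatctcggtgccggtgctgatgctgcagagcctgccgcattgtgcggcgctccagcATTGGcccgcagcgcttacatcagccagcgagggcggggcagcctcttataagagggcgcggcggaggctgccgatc
Tubb5: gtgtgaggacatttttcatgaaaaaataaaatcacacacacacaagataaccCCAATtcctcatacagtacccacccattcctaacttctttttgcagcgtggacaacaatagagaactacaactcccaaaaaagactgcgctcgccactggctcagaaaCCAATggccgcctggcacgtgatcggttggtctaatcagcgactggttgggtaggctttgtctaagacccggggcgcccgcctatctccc
Tubb3 held 1 match and Tubb5 held 2.

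The pathway that folds and modifies tubulin was followed through lists of genes, read in the same fit. Beside the counts of each list stand the shares over all genes tested, 21.3% higher and 22.7% lower, with a median of -0.03. The chaperonin CCT, which folds tubulin, had 5 of 8 genes higher and 0 lower (median log2 fold change 0.38), among them Cct4 (0.59, adjusted p 0.00458), Cct2 (0.48, adjusted p 0.00958) and Cct7 (0.40, adjusted p 0.0383) in edgeR's quasi-likelihood test. All 3 missed the threshold among cells with no mCherry UMI (Cct4 0.24, adjusted p 0.537; Cct2 0.14, 0.640; Cct7 0.07, 0.884) and with neighbouring libraries summed (adjusted p 0.0589, 0.0977 and 0.228). Cct2 also missed it without injured 3-4 (0.37, adjusted p 0.0566), and Cct7 missed it without any 1 of uninjured 2, 3 or 4 or injured 1, 2 or 3-4 (adjusted p 0.0520 to 0.111) and with 5 further alternatives (0.0556 to 0.150). Prefoldin, which hands tubulin to CCT, had 1 of 6 higher and 1 lower (median -0.00): Pfdn4 rose (1.06, adjusted p 0.000737 in edgeR's quasi-likelihood test), and Pfdn1 was lower (-0.49, adjusted p 0.0447) but overlapped between groups. Pfdn4 missed the threshold among cells with no mCherry UMI (0.65, adjusted p 0.102). Pfdn1 missed the threshold without any 1 of uninjured 1, 2, 5 or 6 or any injured sample (adjusted p 0.0529 to 0.200) and with 5 further alternatives (0.0593 to 0.276). The cofactors that join alpha- to beta-tubulin had 2 of 7 higher and 1 lower (median 0.14), namely Tbcd (0.82, adjusted p 0.00143), Tbce (0.54, adjusted p 0.00332) and Tbcb (-0.60, adjusted p 0.0391) in edgeR's quasi-likelihood test. Tbcb missed the threshold without uninjured 2 or 5 or injured 1 or 3-4 (adjusted p 0.0516 to 0.151) and among cells with no mCherry UMI (-0.91, adjusted p 0.114). Both Tbce and Tbcb missed it among cells with 3 to 5% Malat1 (0.25 and -0.13, adjusted p 0.328 and 0.659) and with neighbouring libraries summed (adjusted p 0.0895 and 0.123).

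Among genes that remove or restore the terminal tyrosine of alpha-tubulin, 2 of 5 were higher and 0 lower (median 0.33): Vash2, part of a detyrosinating enzyme, rose from 4.62 ± 1.23 to 14.0 ± 2.83 CPM (log2 fold change 1.56, adjusted p 0.000144 in edgeR's quasi-likelihood test), and Ttl, the ligase that restores tyrosine, reached 0.33 (adjusted p 0.0386). Ttl missed the threshold without any 1 of uninjured 3 to 6 or any injured sample (adjusted p 0.0508 to 0.110) and with 8 further alternatives (0.0795 to 0.837), among them thinned cells (0.10, adjusted p 0.734). Genes that add glutamate or glycine to the tails had 2 of 10 tested higher and 3 lower (median -0.13), beside 21.3% and 22.7% of all genes tested: Ttll3 (1.15, adjusted p 0.00267) and Ttll11 (0.88, adjusted p 0.00124) rose and Ttll7 (-1.23, adjusted p 0.000163), Tpgs2 (-1.13, adjusted p 0.00525) and Ttll12 (-1.03, adjusted p 0.0353) were lower in edgeR's quasi-likelihood test. Ttll12 overlapped between groups and missed the threshold without any 1 of uninjured 2, 4, 5 or 6 or injured 2 or 3-4 (adjusted p 0.0516 to 0.137) and with 5 further alternatives (0.0845 to 0.127). Ttll7, a beta-tubulin glutamylase, went from 366 ± 64.7 to 155 ± 13.1 CPM. Of 4 tested deglutamylases (median -0.18), Agbl4 fell from 250 ± 40.5 to 73.1 ± 10.8 CPM (log2 fold change -1.77, adjusted p 1.06e-05 in edgeR's quasi-likelihood test) and 0 were higher. The acetylation genes had Hdac6, a deacetylase, higher (0.63, adjusted p 0.00642 in edgeR's quasi-likelihood test) and 0 of 3 lower (median 0.52). Hdac6 missed the threshold with cells thinned to 5000 UMIs (0.35, adjusted p 0.307), with neighbouring libraries summed (0.56, adjusted p 0.115) and in libraries 1 to 4 with the replicate block (0.41, adjusted p 0.0783).

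Tubulin synthesis is also limited by decay of tubulin mRNA when free tubulin is plentiful, a feedback that needs the ribosome-associated factor Ttc5. Of the 3 genes of that list, Ttc5 was higher (log2 fold change 0.63, adjusted p 0.0117 in edgeR's quasi-likelihood test) and 0 were lower (median 0.38), and Ttc5 missed the threshold without injured 3-4 (0.47, adjusted p 0.0719), among cells with no mCherry UMI (0.38, 0.185) and with neighbouring libraries summed (0.69, 0.0671). Gamma-, delta- and epsilon-tubulin and the ring complex that nucleates microtubules had 0 of 12 higher and 2 lower (median -0.23), beside 21.3% and 22.7% of all genes tested. The 2 were Tubg2 (-1.31, adjusted p 0.00107) and Tube1 (-0.69, adjusted p 0.0157) in edgeR's quasi-likelihood test. Tubg2 missed the threshold among cells with 3 to 5% Malat1 (-0.52, adjusted p 0.138). Tube1 missed it without injured 1 (adjusted p 0.0793) or injured 2 (0.0531), without cells that held other-class markers (0.0501), among cells with no Xist UMI (0.159) and with neighbouring libraries summed (0.146). With the same 9 samples, all 9 genes of an axon injury list were higher (median 5.27), led by Sprr1a, Ecel1 and Atf3. These were near 0 before crush: Atf3 had 77 uninjured UMIs, and its ratio was 556 with an exact 95% counting interval of 445 to 705.

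The identity and quality of the cells moved with condition as well. Of 8 pan-RGC markers (Tubb3 among them), 5 were lower and 1, Tubb3, was higher, with a median log2 fold change of -0.93. Their summed level was 6784 ± 1013 CPM in uninjured and 4863 ± 577 CPM in injured samples. Pou4f2 (-2.64), Pou4f1 (-1.44) and Rbpms (-1.21) had the largest falls among them, with adjusted p 2.63e-06, 3.68e-05 and 3.85e-05 in edgeR's quasi-likelihood test. Malat1, whose share of UMIs tends to be high where cytoplasmic RNA has been lost, went from 31919 ± 12619 to 73038 ± 8449 CPM (log2 fold change 1.19, adjusted p 0.0108 in edgeR's quasi-likelihood test), and its median share of a cell's UMIs was 1.72% to 4.82% in uninjured and 6.37% to 7.78% in injured libraries. Malat1 missed the threshold with neighbouring libraries summed (1.23, adjusted p 0.0913). Among cells with 3 to 5% Malat1 in both groups, 495 uninjured and 260 injured, Tubb2b, Tubb3, Tubb5, Tubb6, Tuba4a, Tubb2a and Tubb4a passed in the same directions as among all cells, Tuba1a passed as higher, Tuba1b missed the threshold and Tuba1c was too rare to test. Cells kept there ran from 7 and 8 in uninjured 5 and 6 to 278 in uninjured 4. Uninjured 5 and 6 had the highest Tubb3, Tubb5 and Tuba1b of their group among all cells, so calls in this subset lean on 2 samples of few cells.

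Markers of other retinal classes were summed in each sample. Amacrine markers (8 genes, 8 tested) summed to 196 to 342 CPM in uninjured and 319 to 410 CPM in injured samples, with C1ql2 the most abundant after crush. Of them C1ql2 (3.44) and Slc6a9 (1.64) were higher, and Slc6a9 missed the threshold among cells with 3 to 5% Malat1 (1.06, adjusted p 0.104). Müller glia markers (7 genes, 6 tested, 3 higher and 2 lower) summed to 118 to 185 and 132 to 171 CPM, with Dkk3 the most abundant before and Glul after. Of them Vim (4.77), Rlbp1 (2.13) and Glul (0.91) were higher and Dkk3 (-2.50) and Apoe (-2.14) lower, and Apoe missed the threshold without injured 1 (adjusted p 0.0716) or injured 3-4 (0.0890) and among cells with no mCherry UMI (0.0509). Rlbp1 missed it among cells with 3 to 5% Malat1 (0.72, adjusted p 0.497). Photoreceptor markers (9 genes, 2 tested, Pde6b higher) summed to 3.37 to 22.8 and 10.7 to 34.4 CPM, with up to 7 of the 9 at 0 in a library. Bipolar markers (7 genes, 1 tested, 0 past the threshold) summed to 80.2 to 136 and 110 to 160 CPM, nearly all of it Prkca, which passed as higher without uninjured 3 (adjusted p 0.0262) and with 4 other alternatives (0.00585 to 0.0309). Microglia and macrophage markers (8 genes, 2 tested) summed to 9.92 ± 5.25 and 14.1 ± 6.04 CPM, and Cx3cr1 was higher (1.36, adjusted p 0.0230 in edgeR's quasi-likelihood test) with overlapping groups. The other tested gene of that list stood at -1.08 and did not pass, and their median was 0.14. Cx3cr1 missed the threshold without injured 1 or 2 (adjusted p 0.0691 and 0.170) and with 4 further alternatives (0.0562 to 0.382). Astrocyte markers (5 genes, 2 tested, 0 past the threshold) summed to 6.17 to 27.9 and 6.18 to 7.19 CPM, and vascular markers (5 genes, 0 tested) to 1.12 to 4.96 and 1.88 to 3.14 CPM. S100b, the most abundant astrocyte marker in uninjured libraries, passed as lower without any 1 of uninjured 1 to 5 (adjusted p 0.0316 to 0.0490) and with 9 further alternatives (0.00364 to 0.0409).

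Cells that held 3 or more detected markers of any 1 other class were also left out, which kept 1189 uninjured and 1285 injured cells. The calls of the 10 isotypes were then those of all cells. Markers were counted at full depth, so this cut can fall more on deeper cells. It kept 360 of 651 cells of uninjured 4 (median 34337 UMIs) and 182 of 201 cells of uninjured 6 (21977). The parts of other cell classes, RNA quality, depth, sex and mCherry in the tubulin results were not tested beyond these restrictions.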

How the data were processed

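The values are raw UMI counts per gene and cell, deposited by the authors without normalization. The submitters' processing notes name Cell Ranger 7.0.1 and the mm39 build. For each library, the counts of its cells were added up (Python 3.11.15, pandas 2.3.3, numpy 2.4.6, SciPy 1.17.1), and injured 3 and 4, which share barcodes, were averaged with rounding to 1 sample. The authors had limited UMIs per cell to lower the number of doublets, and doublets were not called again. The fit used edgeR 4.0.16 in R 4.3.3, with TMM factors, filterByExpr, a robust quasi-likelihood fit on condition alone and Benjamini-Hochberg adjustment over the 14234 genes tested, at 0.05. The test was also tested on simulated data. Isotype shares were tested by exact permutation of samples, two-sided, and cells were never the unit of a test. A count of 0 allows up to 3 counts, and 95% intervals are exact. Both cover counting error only. Plots used matplotlib 3.10.9.

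Named genes were the 10 isotypes, each other alpha- or beta-tubulin gene, up to 3 genes past the threshold in each direction from each list (or else the 2 most abundant of those tested), and the 5 genes most correlated with Tuba1a or Tubb3. The lists were CCT, prefoldin, cofactors, tyrosination, glutamylation and glycylation, deglutamylation, acetylation, autoregulation, gamma-tubulin and its ring complex, axon injury, and markers of retinal classes. The members and lists were chosen with earlier results of these data known.

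Alternatives were DESeq2 1.42.0, limma-voom with sample weights (limma 3.58.1), upper-quartile factors, library totals, no low-count filter, at least 10 counts in every sample, cells thinned to 5000 UMIs, cell subsets by other-class markers, Malat1 or ribosomal protein share, injured 3 and 4 apart, neighbouring libraries summed, libraries 1 to 4 with and without a replicate block, each sample left out in turn, and other denominators or averages for shares. Cells with no Xist UMI and cells with no mCherry UMI were added after seeing the data.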

Additional observations from a re-analysis of the deposited data

Results flagged for a closer look

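In 35 groups of 6 uninjured values, the highest or lowest sample was compared with its nearest neighbour, and 2 values stood apart from the other 5 by more than Dixon's 95% limit. Tuba1b averaged 16.5 UMIs per cell in uninjured 2, against 11.3 to 13.2 in the other uninjured samples. Tubb5 averaged 19.0 UMIs per cell in uninjured 2, against 14.6 to 16.2 in the others. Chance sets apart about 1 in 20 such groups, and neither gene stood apart in CPM or in its share of tubulin UMIs.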

How the results depend on the processing

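Over 25 alternatives, 246 log2 fold changes of the 10 isotypes were computed: 232 kept direction and side of the threshold, 10 kept direction but missed it, 4 passed where the reported value (Tuba1a) had not, and 0 reversed. Of 170 differences in isotype share, 142 kept both, 27 missed the threshold with an injured sample left out, 1 (Tuba1a) newly passed and 0 reversed. Of 1017 values of 42 other named genes, 907 kept both, 91 missed the threshold, 19 newly passed and 0 reversed. The genes named for their correlation with Tuba1a or Tubb3, Gapdh included, were not among the 42.

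Isotypes higher after crush numbered 3 with at least 10 counts in every sample, where 8 of the 10 could be tested, and 3 among cells with no mCherry UMI. Isotypes lower numbered 2 with neighbouring libraries summed, and 2 to 4 with each sample left out in turn. Among cells with 3 to 5% Malat1, where 10725 genes were tested, 3528 genes passed, 1859 higher and 1669 lower. With cells thinned to 5000 UMIs 2017 genes were higher, of 11138 tested, and with neighbouring libraries summed, which leaves fewer samples, 2146 were lower. The tubulin share of all UMIs in injured samples was 0.422% among cells with no mCherry UMI. Tubulin UMIs per injured cell were 80.2 without cells with other-class markers, 106 among cells with 3 to 5% Malat1, 96.0 among cells with at least 1% ribosomal protein UMIs and 67.9 among cells with no mCherry UMI. Apart from the smaller numbers of genes and samples, the cause was not tested.

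In libraries 1 to 4 with the number as a replicate block, 7782 genes passed, against 8230 without the block. Both fits enter injured 3 and 4 as separate samples, as does the fit with injured 3 and 4 apart, so these counts rest on 1 sample taken as 2. The numbers are not known to pair samples: after removing group means, same-number libraries correlated at -0.144, 0.0631, -0.0373 and -0.126 over 4007 genes.

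Depth limits Tuba1c and Tubb6 before crush, at 8 and 67 UMIs in all, and shares of cells with a UMI. Cell numbers from 98 to 651 a library limit values per cell. Reads shared between Tuba1a and its relatives limit Tuba1a.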
